A study of Mus musculus with 4 samples.

Results

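The genes described here encode secreted neurotrophic factors and the receptors that bind them: the neurotrophins *Bdnf* and *Ntf3*, the GDNF family ligands *Gdnf*, *Artn* and *Nrtn*, the heparin-binding growth factors *Mdk* and *Ptn*, and the receptors *Ntrk2* and *Ngfr*. The genes were chosen with earlier results of these data known, and their probes by gene name: every non-control probe that the array files assign to 1 of these 9 genes was taken, which gave 13 probes (31 spots) of the 39429 probes and 9 of the 29676 gene names on the array. The samples were astrocyte-enriched cultures (AECs) from the cerebral cortex of newborn ICR mice, prepared as mixed glia from several pups, with microglia depleted in every culture, controls included, by PLX3397, which blocks the receptor of colony-stimulating factor-1. Of 4 cultures, 2 were untreated, and 2 underwent oxygen-glucose deprivation (OGD), that is, medium without glucose under hypoxia, for 15 h. Each RNA sample was labeled with Cy3 and hybridized to its own single-color Agilent array, and the comparison asks how expression in AECs differs after OGD. According to the methods, wells held separate cultures from different pups. The p-values rest on the spread between the 2 cultures of each group, moderated by the spread over all probes tested.

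Neurotrophins are made as precursors, cleaved by proteases, and bound by Trk receptor tyrosine kinases and by the p75 neurotrophin receptor. BDNF and neurotrophin-4 bind TrkB, the product of *Ntrk2*, whereas neurotrophin-3 prefers TrkC. *Ntrk2* gives rise to a full-length TrkB with a kinase domain and to a truncated form, TrkB.T1, which lacks it and is the form that astrocytes mainly make. GDNF, artemin and neurturin bind a GFRα coreceptor and signal through the kinase Ret or through NCAM. Midkine and pleiotrophin bind receptors that include the phosphatase PTPRZ1, the kinase ALK and syndecans. Astrocytes are a known source of several of these factors in the injured brain.

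The probes of *Ntrk2* are shown because 1 gene has 3 probes that read different transcripts. Positions are on mm9, as the array files give them, all on the plus strand. The first probe lies in coding sequence for the transmembrane region, at chr13:58979563-58979622, and the files list it for transcript variants 1 and 2. The second, at chr13:59038046-59038105, is listed for variant 2 (truncated) and not for variant 1. The third, at chr13:59230936-59230995, is listed for variant 1 (full-length) and not for variant 2. The first is printed whole (60 bases) and the others by their first 30 bases.
Ntrk2, both variants: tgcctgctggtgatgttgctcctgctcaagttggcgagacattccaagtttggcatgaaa
Ntrk2, variant 2: ttctcaccagcttaattttagccgatgcat
Ntrk2, variant 1: tcaattgatacctatgtgcacgtgtgcaga

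Each of the 13 probes was well above background on every array, none of their spots was marked as an outlier, and all were tested. Signals are given as the processed signal, an intensity after background subtraction. Brightness differs between probes for reasons of sequence, so each probe is compared only with itself. Log2 fold changes (OGD minus untreated) are relative to each array's 75th percentile, the scaling named in the study's methods, and called changes have a limma p below 0.05 after Benjamini-Hochberg adjustment over 28163 probes.

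The scaling matters for every direction given here. In untreated cultures the 75th percentile of the processed signal was 2135 and 2164, and after OGD it was 886.9 and 776.4, a difference of -1.37 on the log2 scale. The spiked-in control probes, which read RNA added in fixed amounts, differed by a mean of -0.085 (from -0.75 to 0.28 over the 9 of 10 detected on every array). Scaling on them moved the median log2 fold change of all probes from 0.18 to -1.11, and values below are therefore given under both. Of all probes, 1263 were called higher (4.48%) and 23105 lower (82%) under spiked-in scaling. According to the methods, the same amount of total RNA was labeled for every array, so values scaled on the spiked-in controls are per amount of total RNA, not per cell or culture. In bulk RNA, fewer cells of a type and less RNA per cell cannot be told apart. The 4 arrays shared 1 slide and 1 scan, no spot was saturated, and 64.5% to 73.7% of the non-control spots were well above background.

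The cultures carried the markers of their label. All 15 astrocyte markers, among them *Gfap* and *Aqp4*, were well above background on every array, and 8 were called higher and 2 lower relative to the 75th percentile. Their median log2 fold change was 0.64, and -0.65 with spiked-in scaling. Their summed signal was 180 to 202 times the array's 75th percentile in untreated and 281 to 282 times in OGD cultures, while *Sox9*, a transcription factor of astrocytes, was lower at -1.52 (-2.81 with spiked-in scaling). Of 11 microglia markers, 6 were well above background on every array, 3 were called higher and 2 lower, the median was 0.10 (-1.19), and the summed signal was 1.54 to 1.84 in untreated and 1.72 to 1.96 in OGD cultures. Among them, *Itgam* had processed signals of 3328 and 2726 in untreated and 1376 and 1015 in OGD cultures. *Csf1r* lay between 189.7 and 235.3, *Tmem119* between 27.9 and 162, and *P2ry12* between 8.04 and 21.5. Of 13 oligodendrocyte markers, 11 were well above background throughout, 5 were called higher and 3 lower, and the median was 0.37 (-0.92), with sums of 38.2 to 40.6 and 47.4 to 48.6. The 3 lower were the lineage factors *Olig2* (-2.51), *Sox10* (-0.76) and *Olig1* (-0.49), lower with spiked-in scaling too, although *Sox10*, which was dim, was at 0.83 with normexp correction. Of 12 neuron markers, 8 were well above background throughout, 5 were called higher and 2 lower, and the median was 0.28 (-1.004), with sums of 29.5 to 31.5 and 32.2 to 35.3. Of 9 meningeal fibroblast markers, 7 were well above background throughout, 1 was called higher and 3 lower, and the median was -0.26 (-1.55). Their sums of 54.8 to 61.8 and 88.7 to 96.5, without *Col1a1*, whose spot was an outlier on 1 array, were carried by *Igfbp2* (0.92, but -0.37 with spiked-in scaling), whereas *Pdgfrb*, *Foxc1* and *Col3a1* were lower under both scalings (-3.71, -2.23 and -2.29 with spiked-in scaling). For NG2 glia, 5 of 7 were well above background throughout, 2 were called higher and 2 lower, the median was -0.21 (-1.50), and the sums were 2.14 to 2.16 and 1.83 to 1.89. For endothelial cells, 6 of 8 were well above background throughout, 3 were called lower, the median was -0.21 (-1.50), and the sums were 2.06 to 2.18 and 1.71 to 1.95. For Schwann cells, 5 of 8 were well above background throughout, 3 were called higher and 2 lower, the median was 0.025 (-1.26), and the sums were 9.51 to 9.9 and 13.3 to 14.4. The sums are relative to the 75th percentile only, and the median of every one of these lists was below 0 with spiked-in scaling, given in parentheses. *Cldn5* and *Tek* (endothelial), *Foxd3* (Schwann cell), *Neu4* (NG2 glia) and *Slc17a7* (neuron) were well above background on no array. The part of these other cell types in the results below was not tested.

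The ligands *Bdnf*, *Gdnf* and *Artn* and the variant 1 probe of *Ntrk2* were higher after OGD under either scaling, while *Ntf3* and *Nrtn* were lower under either. Relative to the 75th percentile, 8 of the 13 probes (7 of 9 genes) were called higher, against 38% of all probes tested, and 2 were called lower, against 27.1%. Over 2-fold, 4 were called higher (13.9% of all probes) and 0 lower (14.8%), and over 10-fold, the limit named in the methods, 1 was called higher (0.813%) and 0 lower (0.526%). The median log2 fold change was 0.64 over the 13 probes and 0.18 over all probes. Under spiked-in scaling, 4 of the 13 were called higher and 7 lower, with a median of -0.65.

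Before any scaling, the processed signals of the groups did not overlap for any of the 13 probes. Both OGD arrays lay above both untreated arrays for 4 probes, those of *Artn*, *Bdnf* and *Gdnf* and the variant 1 probe of *Ntrk2*, as was so for 5.46% of all probes tested. Both lay below for the other 9, as for 89.7% of all probes.

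**Figure D1:**
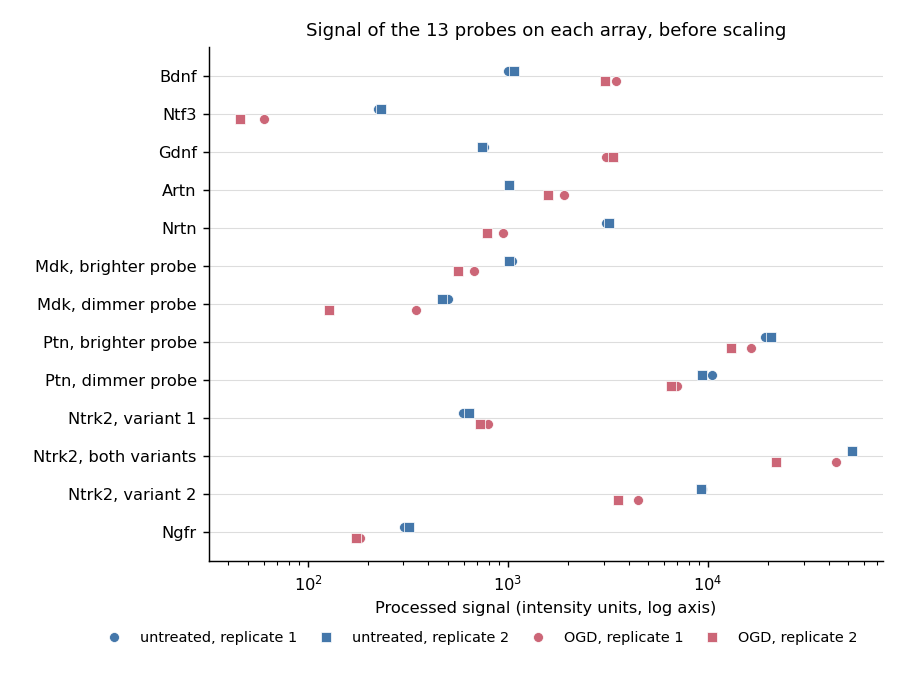
Processed signal (intensity units, log axis) of each of the 13 probes on the 4 arrays, before scaling between arrays; blue marks are the 2 untreated and red marks the 2 OGD arrays, circles replicate 1 and squares replicate 2. For *Bdnf*, *Gdnf*, *Artn* and the variant 1 probe of *Ntrk2* both red marks lie to the right of both blue marks, and for the other 9 probes to the left.

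Among the neurotrophins, *Bdnf*, the ligand of TrkB, had processed signals of 998.3 and 1069 in untreated AECs and 3482 and 3053 after OGD. Both OGD arrays lay above both untreated arrays. Scaled to the 75th percentile, the mean log2 signal was -1.06 ± 0.056 (SD, n = 2) in untreated and 1.97 ± 0.00172 (SD, n = 2) in OGD cultures. *Bdnf* thus rose 8.18-fold, with a log2 fold change of 3.03 (SE 0.0791, adjusted p = 0.000719 by limma), above 98.9% of all probes tested. With spiked-in scaling the log2 fold change was 1.74 (adjusted p = 0.000146). Its single probe lies at chr2:109566961-109567020 on the plus strand of mm9 and is listed for several RefSeq transcripts of the gene, so transcripts from different promoters cannot be told apart.

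*Ntf3*, which encodes neurotrophin-3, had processed signals of 222.6 and 230.6 in untreated and 60.45 and 45.67 in OGD cultures. The OGD arrays were the lower ones without overlap. The log2 fold change was -0.74 (SE 0.107, adjusted p = 0.00691 by limma), 1.66-fold lower, and -2.02 with spiked-in scaling. This is the member with the lowest signals. With normexp background correction of the mean signal, which here includes an added offset of 50, its log2 fold change was -0.12 (adjusted p = 0.231), and the call was lost. It was also lost without untreated replicate 1 (adjusted p = 0.0531) or untreated replicate 2 (adjusted p = 0.0593).

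In the GDNF family, *Gdnf*, a survival factor for dopaminergic and motor neurons, had processed signals of 761.3 and 744.9 in untreated AECs and 3079 and 3333 after OGD. It rose 11-fold, the largest increase among the 13 probes, with a log2 fold change of 3.46 (SE 0.134, adjusted p = 0.000757 by limma), above 99.3% of all probes tested. With spiked-in scaling the value was 2.17. The scaled log2 signals of the OGD arrays were 1.80 and 2.10, and those of the untreated arrays -1.49 and -1.54. The probe lies at chr15:7787474-7787533 on the plus strand of mm9.

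*Artn* encodes artemin, the ligand of GFRα3. Its processed signals were 1006 and 1011 in untreated AECs and 1896 and 1585 after OGD, so that the OGD arrays were higher without overlap even before scaling. The gene rose 4.45-fold, with a log2 fold change of 2.15 (SE 0.0777, adjusted p = 0.000742 by limma). With spiked-in scaling the log2 fold change was 0.87 (adjusted p = 0.0012). The probe lies at chr4:117598825-117598884 on the minus strand of mm9.

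*Nrtn*, which encodes neurturin, the ligand of GFRα2, had processed signals of 3095 and 3209 in untreated and 947.1 and 785.1 in OGD cultures. Scaled, it was 1.41-fold lower, with a log2 fold change of -0.50 (SE 0.0799, adjusted p = 0.00899 by limma), and -1.79 with spiked-in scaling. The call was lost without untreated replicate 1 (adjusted p = 0.0727) or untreated replicate 2 (adjusted p = 0.0847). Within 1 ligand family, then, *Gdnf* and *Artn* were higher and *Nrtn* was lower under both scalings.

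*Mdk* and *Ptn* encode the growth factors midkine and pleiotrophin. The brighter probe of *Ptn* had processed signals of 19180 and 20680 in untreated and 16450 and 13080 in OGD cultures. Its log2 fold change was 0.93 (SE 0.0946, adjusted p = 0.00295 by limma) relative to the 75th percentile but -0.36 (adjusted p = 0.0476) with spiked-in scaling. The dimmer probe, with 10400 and 9298 against 7003 and 6487, gave 0.83 (adjusted p = 0.00468) and -0.46. The log2 difference between both probes of *Ptn* changed by 0.10 (SD 0.191 in untreated and 0.155 in OGD, n = 2 each).

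The brighter probe of *Mdk* had processed signals of 1049 and 1013 in untreated and 675.8 and 564.9 in OGD cultures. Its log2 fold change was 0.64 (SE 0.0817, adjusted p = 0.00512 by limma) relative to the 75th percentile and -0.65 with spiked-in scaling, and the call was lost without untreated replicate 2 (adjusted p = 0.057). The dimmer probe, which spans an exon junction, gave 501.5 and 468.1 against 344.8 and 127.5. On that probe OGD replicate 2 lay far below OGD replicate 1, and the log2 fold change was 0.17 (95% interval from -1.12 to 1.45, adjusted p = 0.769), and -1.12 (adjusted p = 0.0546) with spiked-in scaling. Relative to the 75th percentile it was -0.46 (adjusted p = 0.0315) without OGD replicate 1 and 0.79 (adjusted p = 0.011) without OGD replicate 2.

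**Figure D2:**
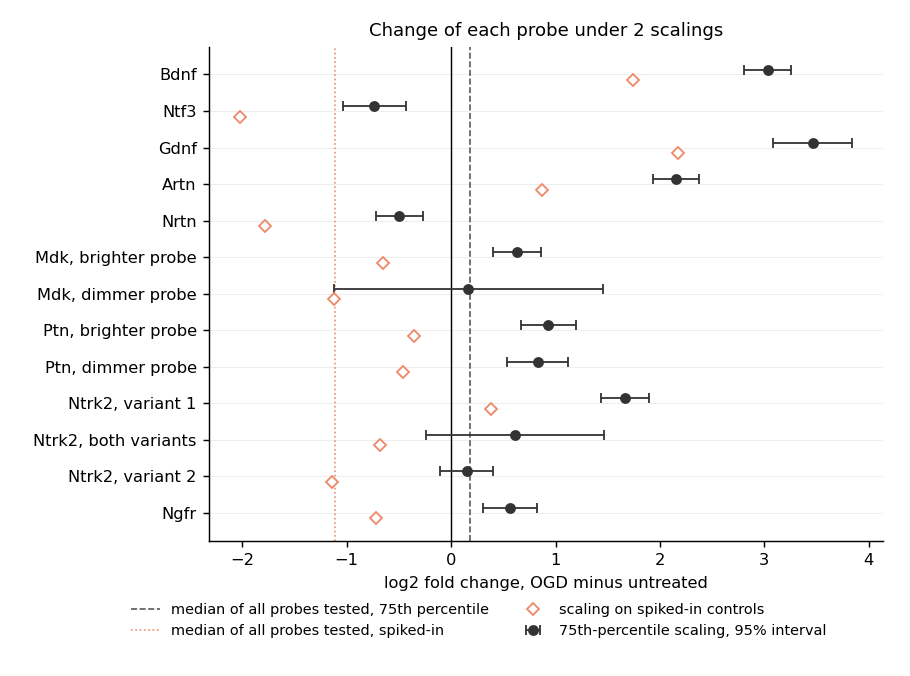
Log2 fold change (OGD minus untreated) of each probe: black circles with 95% intervals are relative to the 75th percentile, open diamonds (no interval drawn) are scaled on the spiked-in controls, and the dashed and dotted lines mark the medians of all 28163 probes at 0.18 and -1.11. *Bdnf*, *Gdnf*, *Artn* and *Ntrk2* variant 1 lie above 0 under both scalings, *Ntf3* and *Nrtn* below 0 under both, and the other 7 probes change sign.

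The probes of the receptor gene *Ntrk2* differed in their change. The variant 1 probe, which reads the transcript of full-length TrkB, is printed on 10 spots of each array, with a coefficient of variation between spots of 2.79% to 6.23%. Its processed signals were 596.7 and 639.8 in untreated and 791.4 and 724.1 in OGD cultures. It rose 3.17-fold, with a log2 fold change of 1.67 (SE 0.0826, adjusted p = 0.00093 by limma), and was also called higher with spiked-in scaling, at 0.38 (adjusted p = 0.0268).

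The variant 2 probe, which reads truncated TrkB, had processed signals of 9289 and 9233 in untreated and 4447 and 3538 in OGD cultures. Relative to the 75th percentile its log2 fold change was 0.15 (95% interval from -0.10 to 0.40, adjusted p = 0.213 by limma), and with spiked-in scaling -1.14 (adjusted p = 0.000601). The probe for both variants had 52090 and 52430 against 43650 and 21730. On it OGD replicate 2 was again the lower OGD array, and the log2 fold change was 0.61 (95% interval from -0.24 to 1.46, adjusted p = 0.151). It was 0.20 (adjusted p = 0.107) without OGD replicate 1, 1.02 (adjusted p = 0.00544) without OGD replicate 2, and -0.68 (adjusted p = 0.0801) with spiked-in scaling.

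A difference between probes of 1 array is free of the scaling between arrays, apart from quantile normalization. The log2 signal of the variant 1 probe minus that of the variant 2 probe was -3.96 and -3.85 in untreated cultures and -2.49 and -2.29 after OGD. The groups did not overlap. The change was 1.52 (SD 0.0773 in untreated and 0.143 in OGD, n = 2 each). It corresponds to a 2.86-fold shift of the ratio of the probes toward the variant 1 probe. With normexp background correction the change was 1.503, and over the arrays left out in turn it ran from 1.42 to 1.62. The exact permutation p was 0.333 (two-sided), the smallest that 2 against 2 arrays can give. Of the 5 pairs of probes of 1 gene compared this way, this one changed most. Pairs of other genes were not compared, but their probes could differ too. *Flt1*, for example, was at 0.60 on its brightest probe, while the mean over its 2 probes was 2.09. Whether the *Ntrk2* difference lies in the transcripts or in the probes was not tested. The variant 1 probe minus the probe for both variants changed by 1.06 (exact permutation p = 0.333), and the variant 2 probe minus the probe for both by -0.46 (exact permutation p = 0.333).

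**Figure D3:**
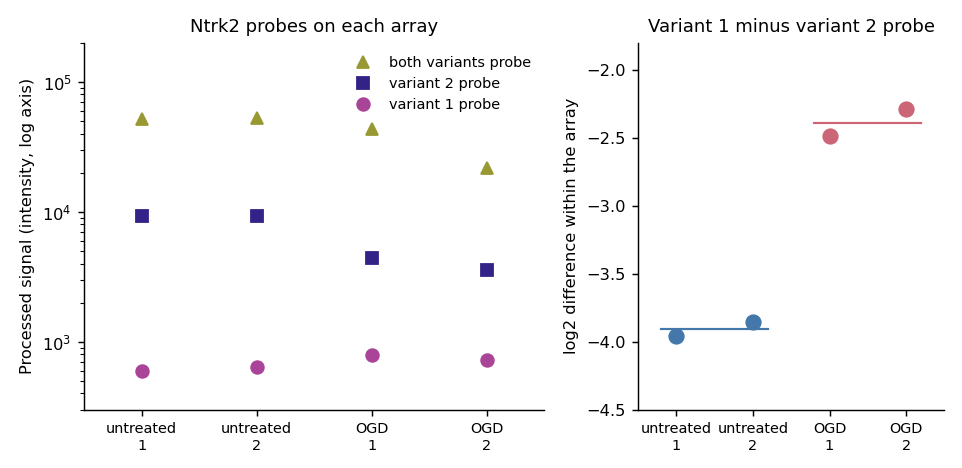
Left, processed signal (intensity, log axis) of the 3 *Ntrk2* probes on each array; brightness is not comparable between probes. Right, log2 signal of the variant 1 probe minus the variant 2 probe within each array, with lines at the group means; the untreated arrays are at -3.96 and -3.85 and the OGD arrays at -2.49 and -2.29.

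*Ngfr* encodes the p75 neurotrophin receptor, which binds all neurotrophins and their precursors. Its probe is also printed on 10 spots, with a coefficient of variation of 2.9% to 6.36%. The processed signals were 301.2 and 319.6 in untreated and 181 and 173.3 in OGD cultures. Relative to the 75th percentile the log2 fold change was 0.56 (SE 0.0903, adjusted p = 0.00888 by limma), and with spiked-in scaling it was -0.72 (adjusted p = 0.00273). The call relative to the 75th percentile was lost without untreated replicate 1 (adjusted p = 0.0761) or untreated replicate 2 (adjusted p = 0.0644).

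The other genes of these pathways were read from lists, each gene by its brightest probe, for which 37.1% of all genes were called higher and 27.9% lower. Their median log2 fold change was 0.16. Of 12 neurotrophin ligands and receptors, 10 were tested, 5 were called higher and 2 lower, with a median of 0.58 (-0.71 with spiked-in scaling). *Ntf5*, which encodes neurotrophin-4, was dim, at 21.6 and 25.4 against 20.9 and 13.5, with a log2 fold change of 0.90 and -0.39 with spiked-in scaling. *Sort1*, which encodes sortilin, the coreceptor of p75 for precursors, was at -0.75 on its brightest probe (-2.04 with spiked-in scaling), whereas the mean over its 3 probes was 0.54. *Ntrk3*, which encodes TrkC, was at -0.12 (adjusted p = 0.297) and at -1.41 with spiked-in scaling.

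Of 18 adaptors and signal partners of these receptors, 16 were tested, 7 were called higher and 4 lower, with a median of 0.24 (-1.04 with spiked-in scaling). *Traf6*, a ligase that binds p75, was at 1.36 and at 0.07 with spiked-in scaling. *Bex3*, a p75-binding protein, was at 0.96 but -0.33 with spiked-in scaling. *Kidins220*, a scaffold of Trk receptors, was at 0.78 but -0.51 with spiked-in scaling, and the mean over its 3 probes was -0.32. The calls with the largest decrease were *Shc1*, a Trk adaptor, at -1.46, *Tnfrsf19*, a relative of p75, at -1.31, and *Sh2b2*, another adaptor, at -0.57. All 3 were lower under both scalings.

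Of 15 enzymes and inhibitors of precursor cleavage, 12 were tested, 8 were called higher and 2 lower, with a median of 0.78 (-0.51 with spiked-in scaling). *Mmp3* was at 0.96 and *Plau*, the urokinase, at 0.96, and both were at -0.32 or below with spiked-in scaling. The convertases differed in direction. *Furin* (-0.62) and *Pcsk6* (-0.75) were called lower, also with spiked-in scaling. *Pcsk1* (0.81), *Pcsk2* (0.75), *Pcsk4* (0.82) and *Pcsk5* (0.74) were called higher, but all were negative with spiked-in scaling. *Pcsk7* was not called (-0.38).

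Of 12 GDNF family ligands and receptors, 10 were tested, 5 were called higher and 2 lower, with a median of 0.32 (-0.97 with spiked-in scaling). The coreceptors differed in direction. *Gfra1*, the coreceptor of GDNF, had processed signals of 713 and 812 against 502.3 and 493 and a log2 fold change of 0.76 (adjusted p = 0.0072), but -0.53 with spiked-in scaling. *Gfra2*, the coreceptor of neurturin, had 455.4 and 476.5 against 71.4 and 64.59 and a log2 fold change of -1.41 (adjusted p = 0.00105), -2.69 with spiked-in scaling and -0.70 with normexp correction. *Gfra3*, the coreceptor of artemin, was dim, at 20.1 and 18.8 against 5.49 and 6.67, with a log2 fold change of -0.31 (adjusted p = 0.222), -1.60 with spiked-in scaling and 0.98 with normexp correction. *Gfra4* was at 1.55 on its brightest probe and 0.26 with spiked-in scaling, while the mean over its 4 probes was 0.42. *Ret*, the signaling kinase, was at -0.57 (adjusted p = 0.218), -1.86 with spiked-in scaling and 0.41 with normexp correction, and *Pspn*, the ligand of GFRα4, was well above background on no array.

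Of 16 midkine and pleiotrophin ligands and receptors, all were tested, 10 were called higher and 2 lower, with a median of 0.65 (-0.64 with spiked-in scaling). *Ptprz1*, a receptor phosphatase of astrocytes and their precursors, had processed signals of 41910 and 41110 against 33410 and 28710, with 0.95 relative to the 75th percentile and -0.34 with spiked-in scaling. *Itgb1*, the integrin β1 chain, was at 1.93 and at 0.64 with spiked-in scaling. *Ltk* (1.27) and *Ncl* (1.26) were at -0.01 and -0.02 with spiked-in scaling. *Ltk* was dim, at 9.83 and 11.8 against 9.55 and 10.6, and the mean over both probes of *Ncl* was 0.27. *Alk*, a receptor kinase, was called lower at -1.15, and *Itga4*, an integrin α chain, at -0.999, and both were lower with spiked-in scaling, but with normexp correction *Alk* was at -0.18 and *Itga4* at 0.16. *Sdc3*, the syndecan that binds both pleiotrophin and GDNF, was at 0.02 (adjusted p = 0.864) and at -1.27 with spiked-in scaling.

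Of 20 other secreted neurotrophic factors, all were tested, 14 were called higher and 2 lower, with a median of 0.93 (-0.36 with spiked-in scaling). *Nrg1*, which encodes neuregulin-1, had processed signals of 11320 and 11470 against 21330 and 22330 and a log2 fold change of 2.31 (1.02 with spiked-in scaling). *Fgf5* was dim, at 8.85 and 13.5 against 34.4 and 28.0, with 2.88 and 1.59 in the same order, and *Fgf2* was at 1.63 and 0.34. *Fgf1* was called lower, at -0.65 and -1.94. *Cdnf* was called lower as well, at -0.90 and -2.18, but was at 0.05 with normexp correction.

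Of 18 regulators known from *Bdnf* transcription, all were tested, 10 were called higher and 4 lower, with a median of 0.55 (-0.74 with spiked-in scaling). *Bhlhe40*, a hypoxia-responsive repressor, had processed signals of 2562 and 2431 against 6015 and 5757 and a log2 fold change of 2.61 (1.32 with spiked-in scaling). *Rest*, a repressor of neuronal genes, was at 1.54 and 0.25. *Creb1*, an activator, was at 1.23 on its brightest probe and -0.05 with spiked-in scaling, and the mean over its 2 probes was -0.01. Its coactivators *Crtc1* (-2.00) and *Crtc3* (-0.90) were called lower, and both were lower under both scalings.

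**Figure D4:**
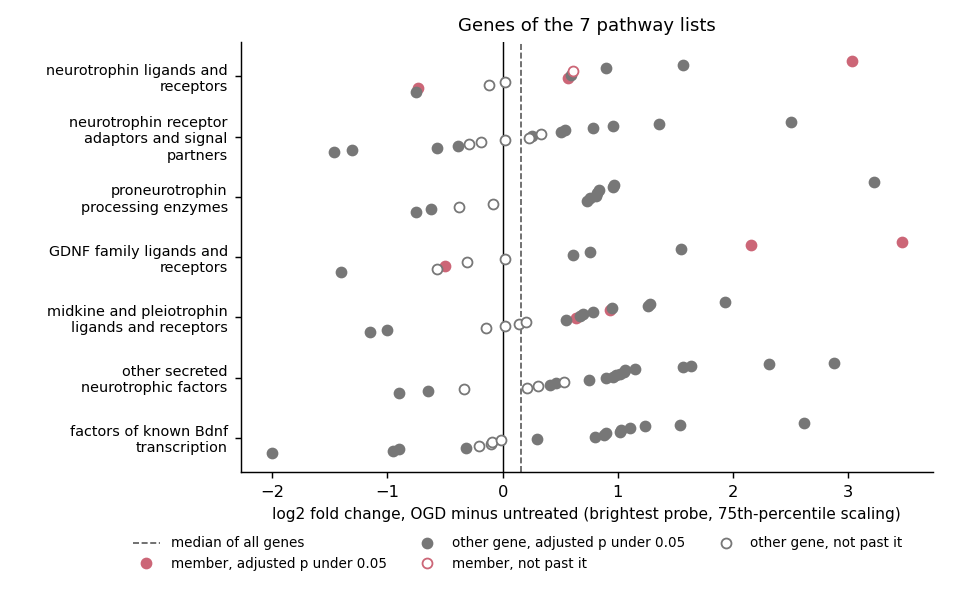
Log2 fold change (OGD minus untreated, relative to the 75th percentile) of each tested gene of the 7 lists, by its brightest probe; red marks are the genes described first and gray marks the others, filled where the adjusted p was below 0.05, and the dashed line is the median of all genes (0.16). Among the red marks, *Gdnf* (3.46) and *Bdnf* (3.03) lie farthest to the right.

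Promoter sequence was taken from RefSeq (GRCm38.p6) because *Bdnf* and *Gdnf*, the genes with the largest increases, have several annotated starts. Windows of 250 bases before an annotated start were found for 8 of the 9 genes, 16 in all, 7 of them for *Bdnf* and 2 for *Gdnf*. Each motif was searched on both strands. The hypoxia response core ACGTG was in 6 of the 16 windows, belonging to *Bdnf*, *Gdnf*, *Ngfr*, *Nrtn* and *Ntf3*, against 16.6% of all 32851 windows. The core of the cAMP response element, TGACG, was in 2 (*Bdnf* and *Gdnf*) against 17.8% of all. For AP-1 the loose pattern TGANTCA was searched, with N any base. It was in 1 window (*Bdnf*, as TGAATCA) against 6.7%. No window of the 16 held the full cAMP response element TGACGTCA (1.5% of all), TGATGNAA (3.5%), the NR4A monomer element AAAGGTCA (1.3%), or the EGR motifs GCGGGGGCG (2.6%) and GCGTGGGCG (0.5%). The genes that were higher and those that were lower both had windows with ACGTG, and the window of *Artn* held none of these motifs. Both cores overlap in 1 window of *Bdnf*, at chr2:109692186-109692435, and 1 of *Gdnf*, at chr15:7809798-7810047, both on the plus strand, with the matched bases in capitals. A match is a description of letters and not of binding, and the *Bdnf* and *Gdnf* probes do not tell which start was used.
Bdnf window: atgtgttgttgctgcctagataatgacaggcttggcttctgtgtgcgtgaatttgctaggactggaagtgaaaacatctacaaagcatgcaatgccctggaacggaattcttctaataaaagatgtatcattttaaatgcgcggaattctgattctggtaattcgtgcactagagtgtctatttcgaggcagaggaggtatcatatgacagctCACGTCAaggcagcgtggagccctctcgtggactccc
Gdnf window: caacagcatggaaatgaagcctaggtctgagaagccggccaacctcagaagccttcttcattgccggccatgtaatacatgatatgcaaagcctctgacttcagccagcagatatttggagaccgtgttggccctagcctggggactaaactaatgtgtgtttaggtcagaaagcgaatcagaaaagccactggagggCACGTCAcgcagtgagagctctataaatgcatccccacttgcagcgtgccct
The shared run CACGTCA was noticed after the windows had been read, and it or its reverse complement was in 1.6% of all windows.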

How the data were processed

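Mouse AECs were profiled on single-color Agilent arrays, 2 untreated and 2 after OGD. The authors' deposited values are an intensity per spot (processed signal, mean signal and local background), made with Agilent Feature Extraction 11.5.1.1 per the labels, and the deposited series table repeats the processed signals. They are not normalized between arrays.

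Processed signals were put on the log2 scale, control and outlier spots were left out, spots of a probe were averaged, and each array's 75th percentile was subtracted. Probes with at least a fraction of 0.5 of their spots well above background on both arrays of a group were kept, 28262 in all, less 99 without a value on every array. OGD was tested against untreated with limma 3.58.1 (lmFit, eBayes, R 4.3.3) and Benjamini-Hochberg adjustment. The steps were tested on simulated data. The number of arrays limits the precision. Tables and figures used Python 3.11.15, pandas 2.3.3, numpy 2.4.6 and matplotlib 3.10.9.

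Every probe of the 9 genes is reported. From each pathway list, read by the probe with the highest mean signal, up to 3 genes called higher and 3 called lower with the largest change and well above background on all arrays are named, with the direct receptors and ligands whatever their values; some genes that this rule names are not reported here. The members and lists were chosen with earlier results of these data known. Alternatives were 4 other scalings (spiked-in controls, median, quantile, and the 75th percentile over detected probes), normexp background correction (offset 50), other filters, outlier spots kept, the methods' test, a trended robust prior, a replicate block, each array left out, the mean over a gene's probes, fold limits, and the deposited series table. Those for the difference between *Ntrk2* probes were chosen after seeing the data. Probe positions are on mm9, per the file headers, and promoters on GRCm38.p6.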

Additional observations from a re-analysis of the deposited data

How the results depend on the processing

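Of the 208 refits of single probes of the 9 genes under the alternatives, 187 kept direction and side of the threshold, 8 lost and 2 gained a call, and 11 turned. Spiked-in scaling called 4 probes higher and 7 lower and turned *Mdk* (-0.65 and -1.12 on its probes), *Ngfr* (-0.72), *Ptn* (-0.36 and -0.46) and *Ntrk2* (-0.68 on the probe for both variants and -1.14 on that for variant 2). The last probes were also at -0.16 and -0.071 with quantile normalization, and the variant 2 probe at -0.003 with the 75th percentile over detected probes. Normexp correction left 1 probe called lower, *Nrtn*. With a 2-fold limit 8094 of all probes were called, 4 probes of the 9 genes higher and 0 lower, and with a 10-fold limit 377, 1 and 0. Leaving out each array in turn gave 10757 to 19148 calls over all probes, 6 to 10 of the 13 higher and 0 to 3 lower, with 0 lower without untreated replicate 1 or untreated replicate 2. The dimmer *Mdk* probe was at -0.46 without OGD replicate 1 and 0.79 without OGD replicate 2. The lone array of a group was then assumed to vary like the other group. The change in the difference between the variant probes of *Ntrk2* was 1.77 with quantile normalization and 1.42 to 1.62 over the arrays left out. Over all probes, normexp correction called 17722 higher and 5369 lower, against 10689 and 7645, and the methods' test called 12680 in all. The replicate numbers share only a number (correlation of deviations -0.0574), and with the replicate block 17198 probes were called, against 18334, with no call changed among the 13. The lowest processed signals among the 13 probes were those of *Ntf3* after OGD, at 60.45 and 45.67, and the call there was lost with normexp correction, whose offset of 50 is of the size of these signals; the correction and the offset were not tested apart.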
